A study of Mus musculus with 18 samples.

Results

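The 18 pancreatic islet libraries were ordered by an interferon score, the mean log2 level of the interferon-stimulated genes Isg15, Ifit1 and Oasl2, and the 6 libraries of highest score were compared with the 6 of lowest score. The ends were chosen by measured values and not by a treatment. A call between them therefore says that a gene moved together with the 3 defining genes over these libraries. Other interferon-stimulated genes are not independent evidence of an interferon response, and the 3 defining genes were left out of every test. Each library came from 1 mouse kept for 12 weeks on a high-fat diet. The study removed NRK1, a kinase of NAD synthesis, from beta cells with an Ins1Cre driver (KO, labelled NRK1_BKO, n = 10) and compared these mice with WT mice (NRK1_WT, n = 8) on the same diet. The labels give neither age nor sex, nor whether WT mice carried the Cre. Islets are clusters of beta, alpha, delta and PP cells with vessels and resident macrophages. In such bulk libraries fewer cells of a type and less RNA per cell cannot be told apart.

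Interferons bind receptors of the Ifnar and Ifngr families, which signal through Janus kinases and transcription factors such as Stat2 and Irf9. Type I interferon acts through a promoter element called ISRE, and interferon gamma through an element called GAS. The induced genes restrict viruses, sense foreign nucleic acid and raise antigen presentation on MHC class I. Beta cells respond to interferons, and an interferon signature with raised MHC class I is known from islets in type 1 diabetes.

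The score ran from 2.54 to 5.47, and its upper end stood apart. The 6 high libraries were KO 7 at 5.47, KO 1 at 5.13, KO 8 at 5.13, KO 10 at 5.07, KO 9 at 4.91 and KO 5 at 3.78. The 6 low libraries were WT 1 at 3.44, KO 4 at 3.37, WT 7 at 3.04, WT 2 at 2.86, KO 3 at 2.84 and WT 3 at 2.54. Numbers after the group only name a library. Between the fifth and the sixth library the score dropped by 1.13, whereas the sixth, KO 5, lay 0.14 above the seventh, KO 2 at 3.64. At the lower boundary WT 6 (3.51, in neither end) and WT 1 (3.44, in the low end) differed by 0.07. The 6 middle libraries, KO 2, WT 5, KO 6, WT 8, WT 4 and WT 6, spanned 3.51 to 3.64 only. Within the score, Isg15 had 34 to 74 reads in the high libraries and 5 to 23 in the low ones, Ifit1 81 to 405 against 8 to 79, and Oasl2 58 to 183 against 20 to 58.

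**Figure D1:**
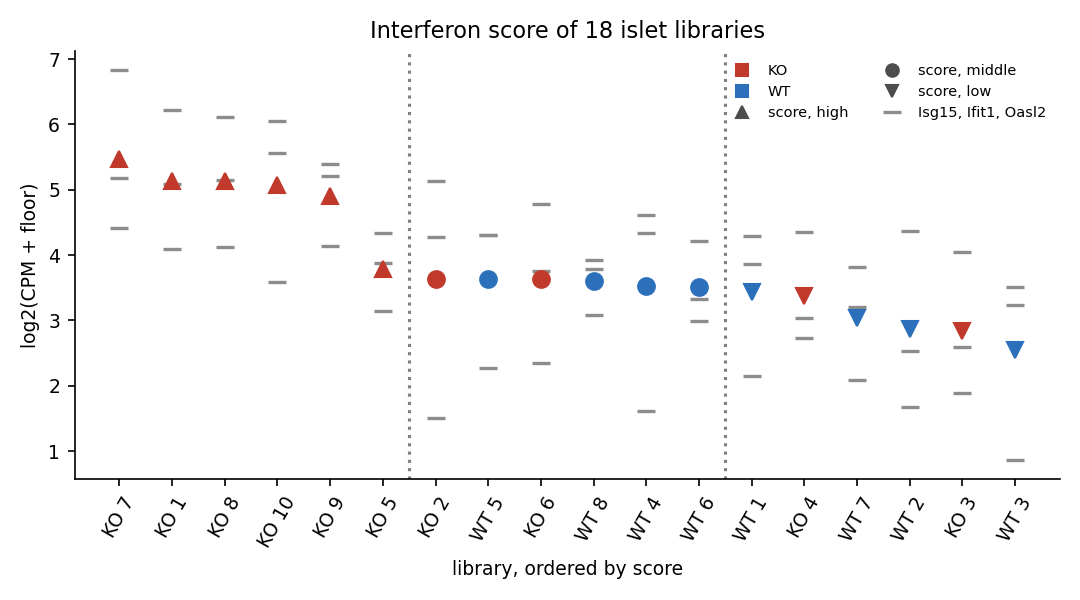
Interferon score of each library on the log2(CPM + floor) scale, ordered from high to low; large symbols are the score (red KO, blue WT), grey dashes the 3 defining genes, and dotted lines separate the 6 high, 6 middle and 6 low libraries. The first 5 libraries lie between 4.91 and 5.47, and the other 13 between 2.54 and 3.78.

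Score and genotype overlapped in part. All 6 high libraries were KO, and the low end held 2 KO and 4 WT libraries (Fisher's exact test, two-sided, p = 0.0606). KO scores ranged from 2.84 to 5.47 and WT scores from 2.54 to 3.63. With genotype as a covariate, the contrast between the ends rests on KO 3 and KO 4 against the 6 high libraries, since no WT library reached the high end. The titles end in numbers, taken here for animal numbers although the labels do not say what they are. They form 8 runs of consecutive numbers, and some runs hold only 1 library. As drawn, 1 run (KO 4, KO 5, WT 3 and WT 4) held libraries of both ends, so run and score end can hardly be told apart. The number of KO 1 is a digit longer than those of the other libraries, so its place in a run of its own is uncertain. Depth was 3011974 to 4303680 reads over the listed genes in the high libraries and 2831137 to 3645690 in the low ones (two-sided exact permutation p = 0.485). The share of reads on Ins1 and Ins2 was 47.8% ± 4.99 (SD, n = 6) against 49.3% ± 6.67 (SD, n = 6), with an exact permutation p of 0.667. Genes listed at 0 reads numbered 78.8 ± 33.7 (SD, n = 6) in the high and 169 ± 101 (SD, n = 6) in the low libraries (exact permutation p = 0.0411, adjusted over the 4 single values 0.165). The low mean was 110 without WT 7 and KO 3, which together with the middle library KO 2 had the most such genes, 346, 227 and 320.

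The targeted gene Nmrk1 (chromosome 19, 18632016 to 18652428) lay at 1.33, 2.13 and 2.44 (lowest, median and highest) in the high libraries and at 1.14, 2.27 and 3.32 in the low ones, with 4 to 36 reads each. The ends overlapped and did not differ detectably (difference of means -0.18, exact permutation p = 0.632, adjusted over the 4 single values 0.667). Without WT 7 and KO 3 the Nmrk1 difference was -0.55 (exact permutation p = 0.0714, adjusted 0.286). The labels do not say which part of the gene was deleted, so reads at its 3' end are no check of genotype. Ins1 was at 14.35, 15.69 and 15.96 against 15.34, 15.75 and 16.71, and Ins2 at 18.37, 18.65 and 19.00 against 18.33, 18.53 and 19.46. Both insulin genes overlapped between the ends (limma adjusted p = 0.817 and 0.996).

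Rsad2 was the 1 gene called between the ends. It encodes viperin, an antiviral enzyme at the endoplasmic reticulum (Entrez 58185, chromosome 12, 26442743 to 26456452, RefSeq annotation of GRCm38.p6). Its log2 levels in the high libraries were 7.34 in KO 7, 7.16 in KO 1, 6.77 in KO 8, 6.51 in KO 10, 6.20 in KO 9 and 5.68 in KO 5. In the low libraries they were 5.79 in WT 7, 4.99 in WT 2, 4.94 in WT 1, 4.89 in WT 3, 4.76 in KO 3 and 3.99 in KO 4. KO 5 and WT 7 crossed, and the other 5 high libraries lay above every low one. Rsad2 had 208 to 579 reads in the high and 58 to 133 in the low libraries. The mean rose from 4.89 ± 0.57 (SD, n = 6) to 6.61 ± 0.62 (SD, n = 6), a log2 difference of 1.72 (SE 0.27, 95% interval 1.16 to 2.28, limma adjusted p = 0.0195). Limma called 0.00952% of the 10506 genes tested higher and 0% lower at an adjusted p under 0.05. At an unadjusted p under 0.05, 486 genes (4.63%) were higher and 271 (2.58%) lower. Rsad2 no longer passed when KO 7, KO 1, WT 1, KO 4, WT 2, KO 3 or WT 3 was left out (limma adjusted p 0.0520 to 0.114). Without WT 7 and KO 3, the low libraries with most genes lacking reads, the difference was 1.91 (limma adjusted p = 0.00636). With the run of animal numbers as a term the difference was 1.24 and did not pass (limma adjusted p = 0.9998). It also did not pass without the variance trend (limma adjusted p = 0.245) or by exact rank-sum test (adjusted p = 0.511).

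With genotype as a covariate, 4 genes were called. Higher with the score were Rsad2 at 2.24 (SE 0.36, limma adjusted p = 0.0360), the antiviral RNA sensor enzyme Oas2 at 3.42 (SE 0.59, limma adjusted p = 0.0426) and Il4i1, a secreted amino acid oxidase, at 3.94 (SE 0.70, limma adjusted p = 0.0447). Lower was Neurog3, the transcription factor of endocrine progenitors, at -2.29 (SE 0.42, limma adjusted p = 0.0458). In this fit limma called 0.0286% of genes higher and 0.00952% lower, and at an unadjusted p under 0.05, 519 (4.94%) were higher and 228 (2.17%) lower. Without any 1 of KO 7, KO 1, KO 8, WT 1, WT 2 or KO 3, the call of each of the 4 was lost, and without KO 4 those of Rsad2 and Neurog3. Leaving out each of the 12 libraries in turn kept the call of Rsad2 in 5 fits, of Oas2 in 4, of Il4i1 in 3 and of Neurog3 in 2.

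Oas2 (chromosome 5, 120730333 to 120749886) was at 2.07, 3.25 and 3.76 in the high libraries, and among the low ones at -0.83 (0 reads) in KO 3 and 0.12 in KO 4 but at 1.37 to 3.20 in the 4 WT libraries. Il4i1 (chromosome 7, 44836288 to 44840809) was at 1.64 (KO 10) to 4.82 (KO 7) in the high libraries, with 10 to 99 reads, and at -0.83 to 2.09 in the low ones, with 0 to 9 reads. Neurog3 (chromosome 10, 62133090 to 62134763) was at 5.12 and 5.03 in KO 4 and KO 3, at 3.24 to 3.82 in the 4 low WT libraries and at 1.99 to 3.50 in the high ones. Il4i1 was at -0.28 and -0.83 in KO 4 and KO 3 and at 0.65 to 2.09 in the 4 low WT libraries. For all 4 genes, Rsad2 included, the 2 low KO libraries thus lay beyond the 4 low WT libraries, on the side away from the high end. Without genotype in the fit, Oas2 differed by 1.73, Il4i1 by 2.86 and Neurog3 by -1.27, and none passed (limma adjusted p 0.462, 0.0534 and 0.362). Within the KO group, a comparison added after seeing the data set the 6 high libraries against the other 4, and Il4i1 alone was called, at 3.84 (limma adjusted p = 0.0190). Rsad2 was at 1.62 there (limma adjusted p = 0.245). Il4i1 had 0 reads in KO 2 and KO 3, 1 in KO 4 and 2 in KO 6, so that side of its comparison lay at or near the floor. KO 2 and KO 3 were among the libraries with most genes at 0 reads.

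When the score entered as a continuous term over all 18 libraries with genotype, Rsad2 and Vmp1 were called. Rsad2 rose by 1.00 log2 per score unit (SE 0.14, limma adjusted p = 0.000678) and Vmp1, a membrane protein of autophagosome formation (chromosome 11, 86583858 to 86683836), by 0.71 (SE 0.13, limma adjusted p = 0.0260). In this fit limma called 0.019% of genes higher and 0% lower, and at an unadjusted p under 0.05, 427 (4.06%) were higher and 252 (2.4%) lower. Vmp1 lay at 4.61 (KO 5), 5.74 and 6.04 in the high libraries and at 3.75, 4.40 and 5.14 in the low ones. The ends overlapped through KO 5 alone. Within the 10 KO libraries, also added after seeing the data, the slope of Rsad2 was 1.02 (limma adjusted p = 0.0164) and 1 gene was called.

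**Figure D2:**
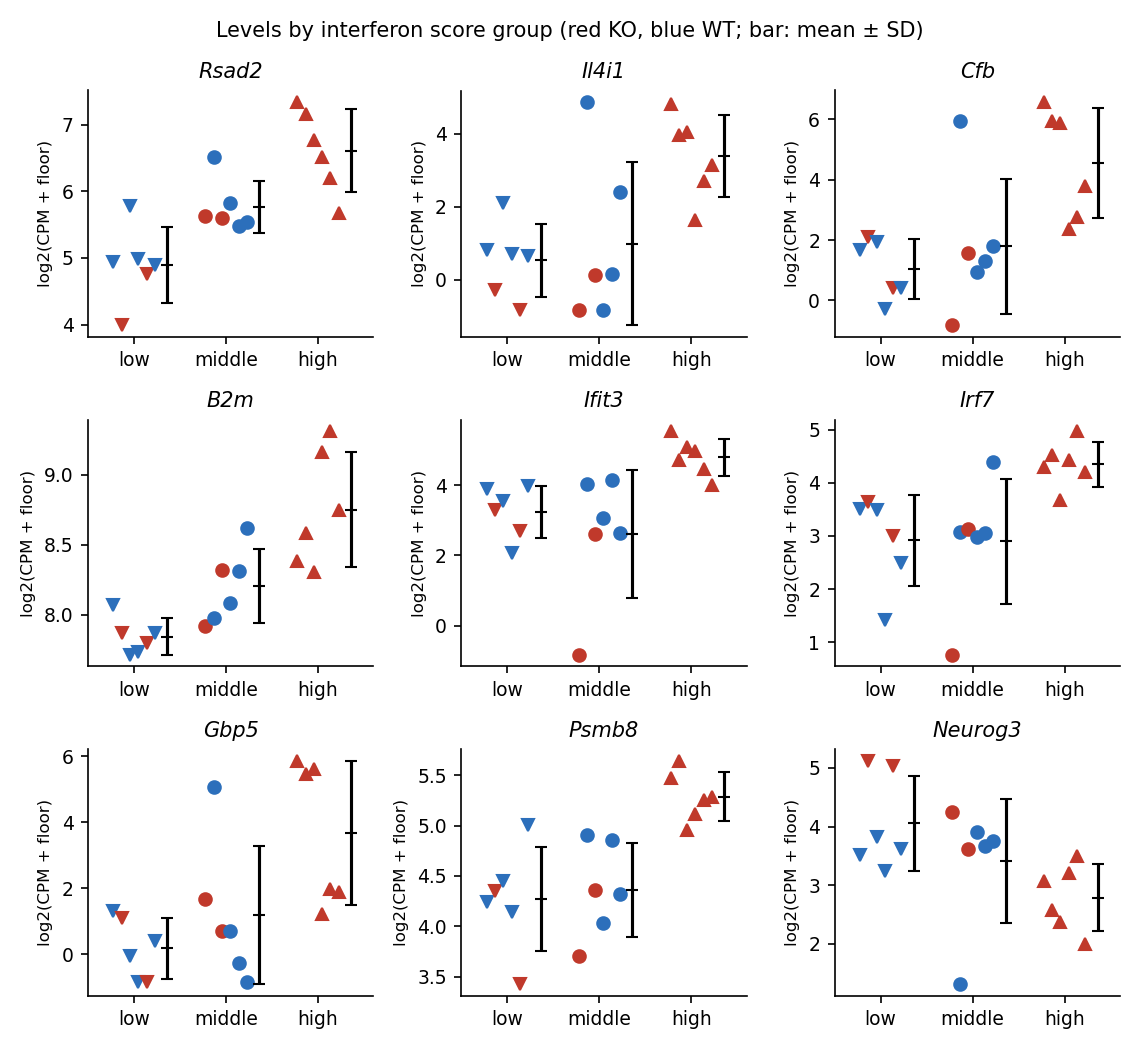
Log2(CPM + floor) of 9 genes in the low, middle and high libraries (red KO, blue WT; black bars are mean ± SD over the 6 libraries of a group). Cfb, B2m, Ifit3 and Irf7 do not overlap between low and high; in Gbp5, KO 7, KO 1 and KO 8 lie at 5.46 to 5.86 and the other 3 high libraries at 1.23 to 1.97.

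Of the 15 genes of smallest p in the higher direction, 7 belong to the antiviral, GTPase, sensor and antigen presentation lists, and 14 did not pass. After Rsad2 came Cfb (complement factor B), B2m (the light chain of MHC class I), Il4i1, the antiviral chaperone Rtp4, the oxidoreductase Ero1a of the endoplasmic reticulum and Gsdma, a gasdermin. They were followed by Ifit3, Tent5a, Gbp5, the nucleic acid sensor Zbp1, Ifit3b, Vmp1, the TNF receptor Tnfrsf1a and Ext1, an enzyme of heparan sulfate synthesis. Limma adjusted p of these 14 ran from 0.0534 to 0.134. B2m lay at 8.30, 8.67 and 9.31 in the high libraries and at 7.71, 7.83 and 8.07 in the low ones, without overlap, from at least 509 reads per library. Its difference was 0.91 (SE 0.17), and its highest levels were in KO 9 and KO 10. Cfb lay at 2.37, 4.82 and 6.58 against -0.28, 1.06 and 2.09, again without overlap, a difference of 3.50 (SE 0.62) from 1 to 14 reads in the low libraries. KO 7, KO 1 and KO 8 held Cfb at 5.87 to 6.58, and KO 10, KO 9 and KO 5 at 2.37 to 3.77. The middle library WT 5, at a score of 3.63, was at 5.94 for Cfb, level with KO 1 and below KO 7, and at 4.88 for Il4i1, above every high library.

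In the lower direction none of the 15 genes of smallest p passed, with limma adjusted p from 0.183 to 0.432. Npnt, an extracellular matrix ligand of integrins, lay at 4.14, 4.73 and 4.86 in the high and at 4.95, 5.46 and 6.09 in the low libraries, a difference of -0.86 (SE 0.21) without overlap. Jakmip1 was at -0.69, the actin regulator Mical3 at -0.95, Vwa5b2 at -1.18, Rflnb at -0.79 and Neurog3 at -1.27. The receptor kinase Grk5 was at -0.95, the microtubule protein Map2 at -0.53, the sulfotransferase Hs3st6 at -0.76, the deiodinase Dio1 at -0.65 and the potassium channel subunit Kcnmb2 at -0.56. Tbc1d30 was at -0.96, the insulin receptor-related receptor Insrr at -0.53, the sulfurtransferase Mpst at -1.06 and Zcchc18 at -0.44. Over all genes tested, the 6 high libraries lay above all 6 low ones for 29 genes (0.276%) and below them for 19 (0.181%). Irf7, Irgm1, Igtp, Samd9l and Nampt were among the 29. Jakmip1, Rflnb and Zcchc18 were among the 19. These 8 were picked from the 2 sets after their values were seen.

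Promoter stretches of 7 genes are printed here because they show the letters of the ISRE (GAAA, any 2 bases, GAAA, or TTTC, any 2 bases, TTTC on the other strand) close to the starts of genes that were high with the score. Isg15 and Ifit1 define the score, Rsad2 is the called gene, and B2m, Ifit3, Gbp5 and Igtp were chosen after their values and matches were seen. Each stretch is 90 bases long and lies within the 250 bases before the transcript start that the promoter entry uses. It is read 5' to 3' on the strand of the gene, from RefSeq promoters of GRCm38.p6, and need not reach that start. The match nearest the start begins at base -66 for Isg15, -85 for Ifit1, -120 for Rsad2 and -139 for B2m. It begins at -122 for Ifit3, -165 for Gbp5 and -34 for Igtp. For Ifit3 that start, and so the stretch, lies within the range annotated for the gene (34583119 to 34588982 on chromosome 19). Capitals mark the ISRE letters, and overlapping matches run together. The coordinates and strands are chr4:156200835-156200924 minus for Isg15, chr19:34640764-34640853 plus for Ifit1, chr12:26456523-26456612 minus for Rsad2 and chr2:122147508-122147597 plus for B2m. They are chr19:34583367-34583456 plus for Ifit3, chr3:142496729-142496818 plus for Gbp5 and chr11:58199466-58199555 plus for Igtp.
Isg15: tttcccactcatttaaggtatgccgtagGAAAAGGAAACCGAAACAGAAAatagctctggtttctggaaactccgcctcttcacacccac
Ifit1: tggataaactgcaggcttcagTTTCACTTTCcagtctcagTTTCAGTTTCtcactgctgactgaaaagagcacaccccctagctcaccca
Rsad2: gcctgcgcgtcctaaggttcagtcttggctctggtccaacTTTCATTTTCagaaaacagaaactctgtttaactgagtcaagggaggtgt
B2m: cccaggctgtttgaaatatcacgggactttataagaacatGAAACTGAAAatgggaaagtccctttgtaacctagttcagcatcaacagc
Ifit3: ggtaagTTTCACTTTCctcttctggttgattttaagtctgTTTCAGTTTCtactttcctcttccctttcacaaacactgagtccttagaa
Gbp5: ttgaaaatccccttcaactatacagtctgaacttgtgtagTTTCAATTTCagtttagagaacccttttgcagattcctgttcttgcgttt
Igtp: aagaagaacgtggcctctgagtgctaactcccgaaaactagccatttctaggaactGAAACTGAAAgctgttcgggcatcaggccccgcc

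The stretch of Isg15 held 3 overlapping matches, those of Ifit1 and Ifit3 held 2 each, and those of Rsad2, B2m, Gbp5 and Igtp held 1 each. The printed stretch of Ifit3b is the same in all 90 letters as that of Ifit3. How reads that match both genes of this near-identical pair were counted is not given, so the separate values of Ifit3 and Ifit3b are uncertain. The stretch holds promoter letters and not the 3' ends that were counted. Of the 8511 listed genes with a RefSeq promoter entry, 3.07% held the ISRE letters in the 250 bases before a start, and of their 11099 promoters 2.47% did. The counts that follow are of genes. Among the 15 genes of smallest p, 5 of the 10 higher ones with a promoter entry held them (B2m, Gbp5, Ifit3, Ifit3b and Rsad2), and 0 of the 12 lower ones with an entry. The ranking follows the 3 defining genes, 2 of which hold these letters, so these shares are no independent evidence. Ifit3 and Ifit3b count as 2 genes here. Among the listed GTPases 6 of 7 held the ISRE letters, among antiviral effectors 10 of 33, and among nucleic acid sensors 2 of 10. For MHC class I genes it was 2 of 15. The GAS letters TTCNNNGAA, which read the same on both strands, were in 6.97% of genes with an entry (5.61% of promoters) and in 3 of the 7 GTPase genes. A match describes letters in a window, not a bound site.

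Interferon-induced antiviral effectors were higher in most members, and 1 of 40 passed. Of these 40, 35 were above 0, 20 were higher and 0 lower at an unadjusted p under 0.05, and the median difference was 0.71. Over all genes tested, 52.4% were above 0, 4.63% were higher and 2.58% lower at that threshold, and the median was 0.02. These shares are the background for the counts of every list below, which are from the fit without covariate unless said otherwise. With genotype in the fit, 4.94% of all genes were higher at that threshold, and most interferon lists had fewer such members. They were 11 of 40 antiviral effectors, 5 of 9 GTPases, 4 of 16 antigen presentation genes and 2 of 20 receptors and signal carriers. NF-kB genes had 7 of 16 and immediate early genes 2 of 15. Sensors stayed at 4 of 13, and the unfolded protein response had 9 of 23. The receptor-transporting protein Rtp4 lay at 4.19, 4.63 and 4.93 in the high and at 1.78, 3.16 and 3.75 in the low libraries, and Ifit3, a protein that binds viral RNA complexes, at 4.01, 4.85 and 5.54 against 2.08, 3.42 and 3.98. Neither overlapped between the ends, and their differences were 1.68 and 1.55. Ifi44 differed by 1.91, Oasl1 by 1.54, Herc6 (the mouse ligase that attaches Isg15) by 0.86, Samd9l by 0.82 and Parp14 by 0.80. In the middle library KO 2, which had many genes at 0 reads, Rtp4 and Ifit3 were listed at 0 reads, although its Ifit1 had 92. The mean log2 level of the list was 4.24 to 4.51 in the first 5 high libraries and 3.81 in KO 5, against 3.19 to 3.90 in the low ones, so KO 5 fell within the low range, below WT 7.

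All 9 measured interferon-induced GTPases, guanylate-binding and immunity-related proteins that attack the vacuoles of pathogens, were higher at an unadjusted p under 0.05, and none passed. Their median difference was 1.46. Gbp5 differed by 3.49, Gbp3 by 2.07, Gbp2 by 1.64, Irgm1 by 1.29, Igtp by 1.07 and Gbp7 by 0.84. Within the high end the mean of the GTPases split the libraries where the mean of the antiviral effectors did not. Among single antiviral effectors, Rsad2 lay at 6.77 to 7.34 in KO 7, KO 8 and KO 1 and at 5.68 to 6.51 in the rest. Parp14 split likewise (6.03 to 6.69 against 5.21 to 5.45), but within the high end Rtp4 was lowest in KO 8 and Ifi44 highest in KO 10. The GTPase mean was 4.26 in KO 7, 3.86 in KO 8 and 3.67 in KO 1, but 2.71 in KO 9, 2.29 in KO 10 and 2.22 in KO 5. The low libraries spanned 1.06 to 2.05, and the middle library WT 5 was at 3.13. Gbp5, the GTPase of largest difference, shows the split, with 5.86, 5.62 and 5.46 in KO 7, KO 8 and KO 1 and 5.05 in WT 5, against 1.97, 1.90 and 1.23 in KO 9, KO 5 and KO 10. Igtp, Iigp1 and Ifi47 did not show it. Igtp was at 3.12 and 3.37 in KO 7 and KO 8, 3.84 and 3.83 in KO 10 and KO 9 and 2.70 in WT 5. Within the high end Iigp1 was highest in KO 9 (3.37) and Ifi47 lowest in KO 8 (1.43). KO 7, KO 8 and WT 5 belong to the same run of animal numbers, and the run of KO 1, whose number is longer, is uncertain. The run also holds KO 6, with a GTPase mean of 2.02 and Gbp5 at 0.70.

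**Figure D3:**
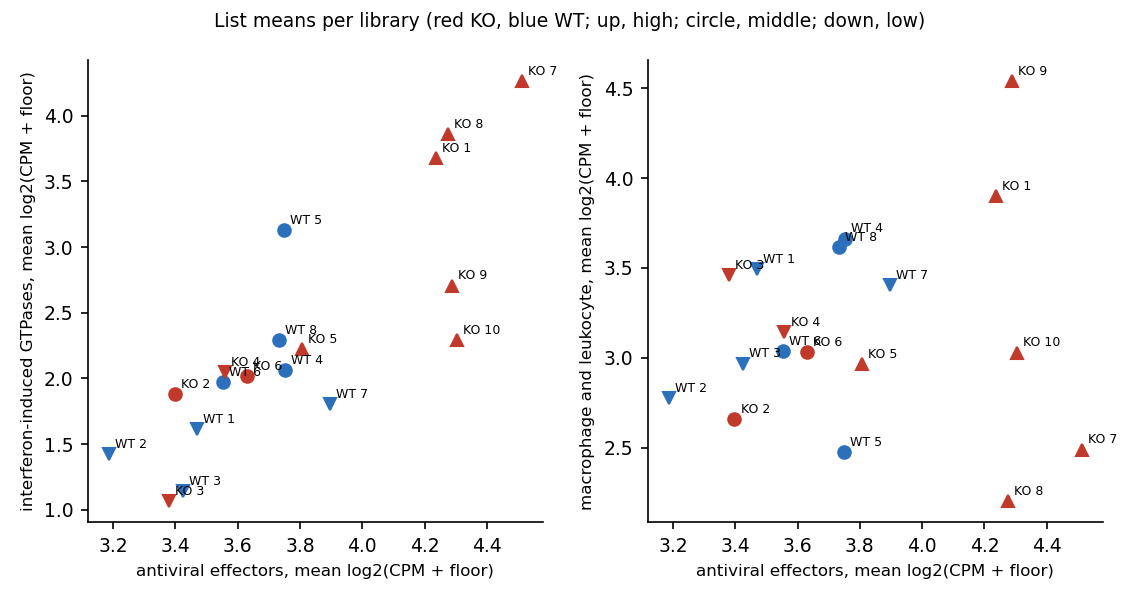
Mean log2(CPM + floor) of the 9 interferon-induced GTPases (left) and of 15 macrophage and leukocyte markers (right) against that of 40 antiviral effectors, 1 point per library (red KO, blue WT; upward triangles high, circles middle, downward triangles low). KO 7, KO 8, KO 1 and WT 5 hold the highest GTPase means, 3.13 to 4.26, and the leukocyte means of the high libraries run from 2.20 to 4.54.

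Genes of NF-kB signalling and its targets followed the same split. Of 16, all were above 0, 10 were higher and 0 lower at an unadjusted p under 0.05, none passed, and the median difference was 0.79. The inhibitor Nfkbia lay at 9.36, 9.37 and 9.37 in KO 7, KO 1 and KO 8 and at 6.91 to 7.35 in the other 3 high libraries, against 6.24 to 7.65 in the low ones, and was at 8.32 in WT 5. Nfkbia differed by 1.38, Bcl3 by 0.96, Nfkb2 by 1.33 and the acute-phase protein Lcn2 by 2.33. Lcn2 was at 6.10, 5.63 and 4.20 in KO 7, KO 8 and KO 1, at 4.34 in KO 5, and at 1.23 and 1.16 in KO 10 and KO 9, which lay within the low range of 0.69 to 2.28. The mean of the list was 4.86, 4.67 and 4.52 in KO 7, KO 8 and KO 1, 4.53 in WT 5, and 3.37 to 3.94 in KO 10, KO 5 and KO 9. The low libraries spanned 2.73 to 3.67. The split was seen in these values and was not tested.

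Sensors of nucleic acid were higher in 11 of 13, with 4 at an unadjusted p under 0.05, 0 lower and a median of 0.70. Zbp1 lay at 1.26, 1.998 and 2.65 in the high libraries and at -0.83, -0.55 and 0.40 in the low ones, from 0 to 3 reads in the latter. The RNA helicase Ddx58 (RIG-I) differed by 0.70, Mndal by 0.99 and the endosomal RNA receptor Tlr3 by 0.96. None of these passed.

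Receptors and signal carriers were mixed. Of 20, 13 were above 0, 5 were higher and 0 lower at an unadjusted p under 0.05, and the median was 0.25. Among the 5 were the interferon amplifier Irf7 at 1.43, the feedback inhibitors Usp18 at 0.92 and Socs3 at 1.59, and Stat3 at 0.42, all genes that interferon or cytokine signals are known to induce. Irf7 lay at 3.67, 4.36 and 4.97 in the high and at 1.41, 3.24 and 3.64 in the low libraries, and the ends did not overlap, by a gap smaller than the spread within either end. Socs3 was at -0.04 (1 read) in WT 7 and 0.79 (3 reads) in KO 3. The other low libraries held Socs3 at 3.28 to 4.46, within the high range of 2.44 to 4.93. Irf9 differed by 0.49 and Stat2 by 0.34. The 4 receptor chains Ifnar1 at -0.45, Ifnar2 at -0.06, Ifngr1 at -0.20 and Ifngr2 at 0.70 overlapped between the ends, and Ifnar1 rested on 3 to 34 reads in these libraries. None passed.

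Antigen presentation on MHC class I was higher in 15 of 16 measured genes, with 7 at an unadjusted p under 0.05, 0 lower, none past the test and a median of 0.50. Besides B2m these were the immunoproteasome subunits Psmb8 at 1.02 and Psmb10 at 0.59, the peptide transporter Tap1 at 0.99, the tapasin relative Tapbpl at 0.62, the proteasome activator Psme2b at 1.21 and the heavy chain H2-K1 at 0.47. Psmb8 lay at 4.96, 5.27 and 5.64 in the high and at 3.42, 4.29 and 5.01 in the low libraries, overlapping through KO 8 and WT 3 alone. Psme2b was at 0.43 in KO 3 and 2.09 in WT 7, and at 3.50 to 3.91 in the rest of the low libraries. The mean of the list was 6.01 to 6.32 in the high libraries and 5.35 to 5.94 in the low ones. KO 8, KO 7 and KO 1 were at 6.32, 6.24 and 6.15, KO 10 at 6.12, KO 5 at 6.09, KO 9 at 6.01 and WT 5 at 6.09. This mean thus did not clearly repeat the GTPase split, and members differed. Psmb10 was at 6.76 to 6.93 in KO 8, KO 7 and KO 1 and at 6.17 to 6.33 in the other high libraries. Within the high end B2m was lowest in KO 8 (8.30) and KO 7 (8.38), and H2-K1 was highest in KO 10 (9.46). The 17 subunits of the proteasome core and immunoproteasome, which share Psmb8, Psmb9 and Psmb10 with the antigen presentation list, had a median of 0.21, with 15 above 0, 4 higher and 0 lower at an unadjusted p under 0.05.

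**Figure D4:**
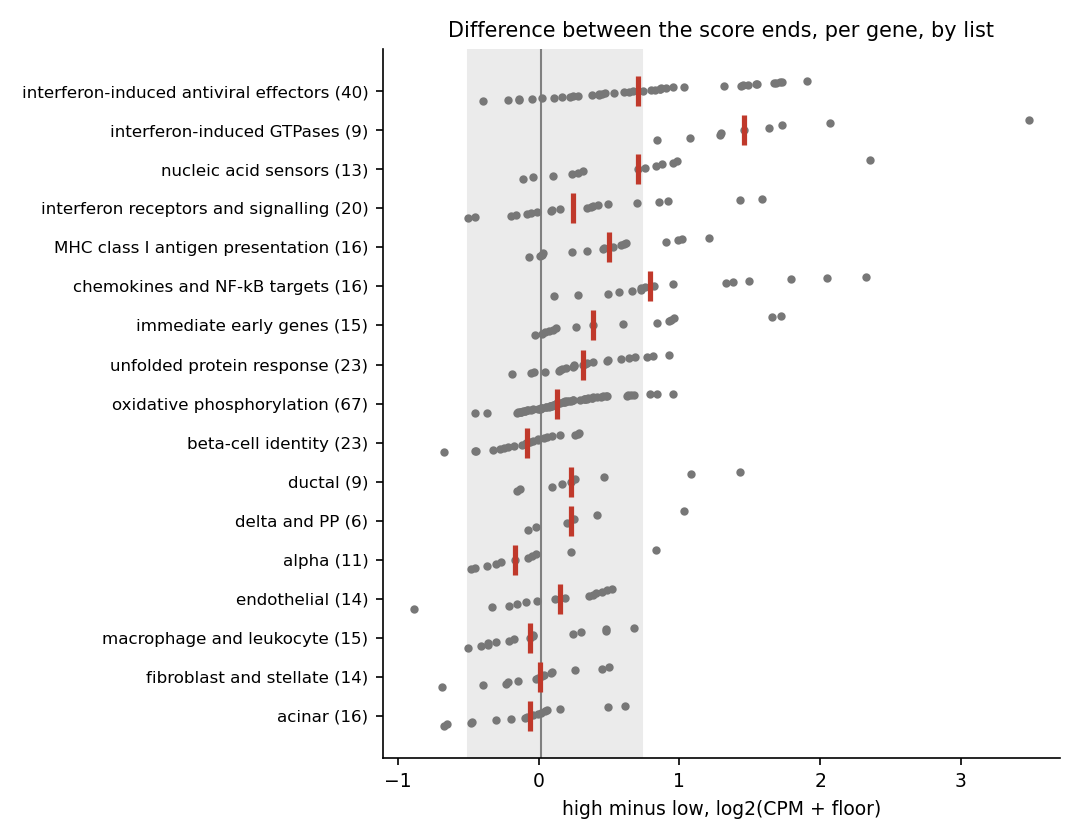
Difference between the 6 high and the 6 low libraries on the log2(CPM + floor) scale, 1 grey point per gene, by list (number measured in brackets); red ticks are list medians, the grey line is the median of all genes tested (0.02) and the band holds the 5th to 95th percentile of all genes (-0.51 to 0.74). Each GTPase lies above 0, and beta-cell identity and marker lists of other cell types lie mostly within the band.

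Immediate early genes were higher in 14 of 15, with 6 at an unadjusted p under 0.05, 0 lower and a median of 0.39. The stress response gene Ier3 differed by 0.94, and the transcription factors Junb by 1.72, Jun by 0.84 and Fos by 1.66. Junb lay at 5.17, 5.75 and 6.80 in the high libraries. In the low ones Junb was at 1.78 in WT 7 and 2.85 in KO 3, and at 4.36 to 5.66 in the rest. The median of the list without WT 7 and KO 3 was 0.44. These genes also respond to the isolation of islets, and the time from sacrifice to lysis is not given in the labels. The unfolded protein response was higher in 20 of 23, with 5 at an unadjusted p under 0.05, 0 lower and a median of 0.31, which was 0.13 without WT 7 and KO 3. Asparagine synthetase Asns differed by 0.58, the pseudokinase Trib3 by 0.92, the chaperone-associated factor Manf by 0.81 and the phosphatase subunit Ppp1r15a by 0.77. None of these genes passed.

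Beta-cell identity genes lay mostly at or slightly below 0. Of 23, 7 were above 0, 0 were higher and 3 lower at an unadjusted p under 0.05, none passed, and the median was -0.08. The 3 were the glucose transporter Slc2a2 at -0.68, the transcription factor Pdx1 at -0.45 and the zinc transporter Slc30a8 of the insulin granule at -0.45. Slc2a2 lay at 6.76, 7.11 and 8.03 in the high and at 7.39, 8.004 and 8.42 in the low libraries. KO 7, KO 10, KO 1 and KO 9 were below every low library, and KO 8 and KO 5 were not. The mean level of the list spanned 8.03 to 8.23 in the high and 8.11 to 8.34 in the low libraries, so the ends overlapped.

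Genes of NAD metabolism, the pathway of the deleted kinase, had 15 of 22 above 0, 4 higher and 1 lower at an unadjusted p under 0.05, none past the test and a median of 0.11. The rate-limiting salvage enzyme Nampt, which the antiviral list holds too, lay at 4.49, 4.54 and 4.95 in the high and at 3.53, 3.92 and 4.44 in the low libraries without overlap, a difference of 0.67. Parp14, also in both lists, was the second, and the deacetylase Sirt2 was at 0.52 and the NAD kinase Nadk at 0.73. The mitochondrial transhydrogenase Nnt was lower, at -0.59. Oxidative phosphorylation genes had a median of 0.13, with 52 of 67 above 0 and 3 higher and 0 lower at an unadjusted p under 0.05. That median was 0.01 without WT 7 and KO 3, and 3 of 67 is near the 4.63% that were higher over all genes tested.

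Without covariate, markers of other cells did not separate the ends as lists. Of 15 macrophage and leukocyte markers, 5 were above 0, 0 were past an unadjusted p under 0.05 and the median was -0.06. Their mean level in the high libraries ran from 2.20 in KO 8 and 2.49 in KO 7 to 4.54 in KO 9, and in the low ones from 2.78 to 3.49, while the summed level was 96.4 to 554 CPM against 166 to 367 CPM. KO 8, WT 5 and KO 7, at 3 of the 4 highest GTPase means, had the 3 lowest leukocyte means of the 18 libraries (2.20, 2.48 and 2.49), and KO 1, the other one, had the second highest (3.90). The defining leukocyte gene Ptprc had 1 to 61 reads per library and the macrophage marker Adgre1 0 to 9. Acinar markers spanned 1.34 to 6.54 in the high and 1.58 to 4.88 in the low libraries, with 0 of 16 past an unadjusted p under 0.05. Over all 18 libraries with genotype, 6 of the 16 were lower with the score at that threshold. Endothelial genes had 8 of 14 above 0, fibroblast and stellate genes 7 of 14, and alpha-cell genes 2 of 11, with medians of 0.15, 0.01 and -0.17. Adipocyte genes were above 0 in 4 of 4 and plasmacytoid dendritic cell and cycling genes in 2 of 4 each, and 0 of these had an unadjusted p under 0.05. Of 2 erythrocyte genes, both above 0, 1 had. Of 9 ductal markers 7 were above 0, and 2 were higher at an unadjusted p under 0.05, the secreted phosphoprotein Spp1 at 1.09 and the transcription factor Sox9 at 1.43. Delta and PP genes had 4 of 6 above 0, a median of 0.23 and 1 higher at that threshold, the pancreatic polypeptide gene Ppy at 1.03. Schwann and neuronal genes had 3 of 6 above 0, a median of 0.24 and likewise 1 higher, the neuronal tubulin Tubb3 at 0.87. With genotype in the fit, 6 of 6 delta and PP genes were above 0, 4 were higher at that threshold and the median was 1.05. Alpha-cell genes then had 8 of 11 above 0, 1 higher and a median of 0.35. The delta and PP mean was 6.01 in KO 4 and 6.38 in KO 3, on which that fit rests, and 6.26 to 8.04 in the high libraries. None passed, and the part of other cells in the interferon differences was not tested beyond 2 covariate fits. With the leukocyte mean as a covariate Rsad2, B2m and Cfb were called, and with the acinar mean 12 genes were.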

How the data were processed

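RNA from islets of 18 mice was read with QuantSeq 3' FWD libraries, per the labels. The authors deposited 1 table of log2 values for 10509 genes. Per the submitters' processing notes, the tools were edgeR, HTSeq 0.6.1 and STAR 2.5.2 on GRCm38, with no role given. From the values, the deposited log2 is that of CPM plus a floor of 0.562 CPM (log2 of -0.83 at 0 reads), and whole reads were recovered for 100% of values in each library within a tolerance of 0.05 reads. Depth sums these reads over all genes of the table, and 1 read was worth 0.238 to 0.411 CPM. Read numbers cover counting error only, since reads copied by PCR do not come from separate molecules. Differences on this scale understate changes of genes with few reads.

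The members, the gene lists and the tests were chosen with earlier results of these data known. The score is the mean log2 of Isg15, Ifit1 and Oasl2. Limma 3.58.1 (R 4.3.3; mean-variance trend, two-sided, Benjamini-Hochberg adjusted p under 0.05) was fitted to 10506 genes, without covariate, with genotype, and with the score as a slope. No filter was set. Single values were tested by two-sided exact permutation with scipy 1.17.1. Because the values are log2, limma voom on those reads stood in for a count test. Lists are described by counts and medians. Named genes were Nmrk1, Ins1 and Ins2, the 15 of smallest p in each direction, and leading members of each list (up to 10 in interferon lists, up to 4 in others). Adjusted p in these texts are from limma unless called exact. Nothing in the labels says whether libraries share a litter or a day, so p-values measure the spread between these mice. All 73 pairs of libraries of the same genotype differed by more than sampling noise (chi-square of 6.10 to 47.6 per degree of freedom). The limma fit was tested on simulated data, with genes drawn independently for ends already fixed. That test does not cover the choice of the ends by measured values. Promoters came from RefSeq (GRCm38.p6), and 8511 of 10508 gene symbols had one. Lists with fewer than 2 measured genes are not described. A gene that the naming rule covers is not reported here.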

Additional observations from a re-analysis of the deposited data

Results flagged for a closer look

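In the 2 ends, 66 groups of 6 values (depth, genes at 0 reads, insulin share, Nmrk1, list means and called genes) were examined for a library far from the others, and 1 had one. Chance gives about 1 in 20. In KO 5 the mean over the nucleic acid sensors, 2.79, lay below the next lowest high library, at 3.08, a gap large against the range of the 6 libraries. KO 5 entered the high end by 0.14 over KO 2. Without KO 5, 4 genes were called between the ends (Gsdma, Vmp1, Rsad2 and Cfb), and Rsad2 differed by 1.90 (limma adjusted p = 0.00260). KO 5 also had the fewest genes at 0 reads (33) and the highest acinar mean (6.54) of the 18 libraries, and the part of either in its low sensor mean was not tested.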

How the results depend on the processing

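No paired analysis was possible because the labels give neither pairs nor replicate numbers. Gene by gene the directions held in most settings, while the number of calls depended on many of them, and the causes were not tested. Between the ends 1 gene was called. It was 10 at an adjusted p under 0.10, 4 with 1 added to the linear value, 7 with sample weights, 2 with 5 libraries at each end, 0 with 7, 6 with the score as a slope over 18 libraries, 12 with the acinar and 3 with the leukocyte covariate, 0 with the run of animal numbers as a term, 0 with the score taken without Isg15 or without Ifit1, 2 without Oasl2, and 0 by exact rank-sum test (601 at an unadjusted p under 0.05). Leaving out each library gave 0 to 5. The other settings gave 1, which without the variance trend was Zbp1. Within KO libraries, added after seeing the data, it was 1 (Il4i1) between the 6 high and the other 4, and 1 (Rsad2) for the slope. With genotype 4 genes were called. It was 0 when a gene had to exceed a log2 of 3 in 6 libraries, 1 with 1 added, 0 with quantile normalization, without a trend or with sample weights, 1 with voom, 0 with 7 libraries at each end, 2 for the slope, 2 with the leukocyte covariate, 0 without the libraries with most genes at 0 reads, 2 with the run, 0 with the score without Isg15, 2 without Ifit1 and 69 without Oasl2. Leaving out each library gave 0 to 60. The 60 came without KO 4, where KO 3, with 227 genes at 0 reads, was the only low KO library left. The slope fit with genotype called 2, without genotype 6 and within KO libraries 1. The insulin share difference of -1.48 percentage points was 2.54 without the 3 libraries with most genes at 0 reads.

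Of 2958 values of 85 named genes under alternatives, 30 changed sign, 14 lost the call (all Rsad2) and 40 gained one. With the run as a term, which rests on KO 5 against KO 4 and WT 3, these turned: Gbp2 -0.63, Stat3 -0.24, Ifnar1 0.13, Ifnar2 0.13, Psmb10 -0.091, H2-K1 -0.36, Nfkbia -0.068, Junb -0.40, Fos -0.42, Slc2a2 0.10, Ppp1r15a -0.59 and Ins2 0.23. Ins2, near 0, was also 0.16 with sample weights, 0.037 with 7 libraries at each end, 0.21 with genes at 0 reads as covariate, 0.25 without the libraries with most of them, 0.057 and 0.067 with the score without Ifit1 or Oasl2, and -0.097 to 0.13 over fits without 1 library. Nmrk1 was 0.035 without WT 2 and 0.21 within KO libraries. Ifnar1 was 0.055 with the score without Isg15, Ifnar2 0.022 with genes at 0 reads as covariate, 0.080 with the score without Oasl2 and -0.12 to 0.025 over fits without 1 library, and Ifngr1 0.060 per score unit within KO libraries. Genes with under 10 reads in the low libraries, such as Zbp1, Gbp5 and Il4i1, are limited by depth.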
